A study of Rattus norvegicus with 48 samples.

Results

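Livers of rats dosed for 28 days (28-d) with the middle or the high dose of thioacetamide (TAA) were compared directly with each other, miRNA by miRNA. The comparison rests on 6 of the 48 small RNA libraries of the series, which were chosen by dose and duration alone: 3 livers from rats given 15 mg/kg (middle dose, rats 37, 38 and 39) and 3 from rats given 45 mg/kg (high dose, rats 19, 20 and 21). All animals were male Sprague-Dawley rats that received TAA once daily, and RNA came from pieces of whole liver taken a day after the last dose. Rats given 4.5 mg/kg (low dose, rats 28, 29 and 30) and vehicle controls (rats 16, 17 and 18) of the same duration, and the middle and high dose rats dosed for 3, 7 or 14 days, are used here only beside this contrast. The table of read counts held 664 mature miRNAs with a read, of which 301 reached 5 reads per 1000000 mapped reads (RPM) in at least 3 of the 48 libraries and were tested.

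TAA is a hepatotoxicant that liver enzymes oxidise to reactive metabolites, and repeated dosing is a standard way to produce liver injury and fibrosis in rats. A miRNA is cut from a hairpin precursor into a guide strand and a passenger strand (named 5p or 3p by the arm they come from). The guide pairs with messenger RNAs mainly through its seed, bases 2 to 8 from the 5′ end, so miRNAs with the same seed can address similar targets, while miRNAs from neighbouring hairpins are often made from the same transcript. In liver, miR-122 is largely made by hepatocytes, miR-144 and miR-451 by red blood cell precursors, and miR-34a is a transcriptional target of p53.

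The mature sequences of the miRNAs on which the results turn are given here in sets, so that miRNAs of the same seed can be set side by side. They are RefSeq sequences (hairpins placed on GRCr8), written 5′ to 3′ with the seed in capitals, and 270 of the 301 tested miRNAs matched an entry. Those lower at the high dose whose difference was not kept in a fit that holds the library split described below are shown first. They are shown with miR-500-3p, a partner of the same seed that did not pass the test.
miR-99b-5p: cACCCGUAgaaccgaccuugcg
miR-100-5p: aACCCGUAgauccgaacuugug
miR-125b-5p: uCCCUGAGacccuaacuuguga
miR-125a-5p: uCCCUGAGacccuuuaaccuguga
miR-501-3p: aAUGCACCcgggcaaggauuugg
miR-500-3p: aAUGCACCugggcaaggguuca

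The next set was lower at the high dose and also lower in a fit that holds the library split described below. It is shown with the seed partners miR-34c-5p, miR-190a-5p and miR-146a-5p, which did not pass the test.
miR-34a-5p: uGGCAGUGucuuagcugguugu
miR-34c-5p: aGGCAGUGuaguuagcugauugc
miR-449a-5p: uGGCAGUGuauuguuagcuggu
miR-190b-5p: uGAUAUGUuugauauuagguu
miR-190a-5p: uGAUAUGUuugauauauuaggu
miR-146b-5p: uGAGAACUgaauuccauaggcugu
miR-146a-5p: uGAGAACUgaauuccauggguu
miR-6329: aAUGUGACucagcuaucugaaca
miR-185-5p: uGGAGAGAaaggcaguuccuga

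Of the miRNAs that passed the test and were higher at the high dose, miR-434-3p had the largest difference with a sequence at hand. miR-122 and miR-193a were among the liver miRNAs that moved on both strands.
miR-434-3p: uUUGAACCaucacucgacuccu
miR-122-5p: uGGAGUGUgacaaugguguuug
miR-122-3p: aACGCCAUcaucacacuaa
miR-193a-3p: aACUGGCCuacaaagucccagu

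The 6 libraries were deep, with 11569043 to 14207698 mapped reads each, and the liver profile was present in all of them: miR-192-5p was the most abundant miRNA in every library and miR-122-5p took 2.23% to 2.71% of reads at the middle dose and 3.40% to 3.75% at the high dose. Libraries of the same dose were close to each other. The median absolute log2 difference over the tested miRNAs was 0.185 to 0.190 between middle dose rats and 0.151 to 0.192 between high dose rats, against 0.294 to 0.416 across the doses.

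Before any result, one feature of the series bears on this contrast. In 12 of the 48 libraries miR-100-5p stood at 960.3 to 1706 RPM, and in the other 36 at 100.1 to 351 RPM, with no library between. The within-library ratio of miR-99a-5p to let-7c-5p, which lie in a common cluster, divided the same libraries, with 1.09 to 1.90 in the 12 and 0.146 to 0.718 in the 36. The ratios of miR-99b-5p to let-7e-5p and of miR-199a-5p to miR-199a-3p did so for all libraries but that of 3-d control rat 1, the latter narrowly. That library had 46.5 and 0.514, where the 12 had 12.4 to 28.5 and 0.375 to 0.537. It held only 293331 reads and stayed in the fits of 48 libraries. The 12 libraries were all 3 middle dose rats at 7, 14 and 28 days, 2 of the 3 low dose rats at 28-d (rats 28 and 30) and 1 of the 3 high dose rats at 7-d (rat 26). No control, no library of 3-d and no high dose library of 14-d or 28-d was among them. The labels name no batch that follows this split. The numbers in the labels do run with it, as all 12 lie within 26 to 39, where only 27 and 29 were not raised. What the numbers stand for is not given, and a link to the split was not tested. Since every middle dose library of 28-d lay on the raised side and every high dose library on the other, dose and split cannot be told apart within the 6 libraries. Only the low dose 28-d and high dose 7-d groups hold both kinds of library, and values of those rats are given below for the miRNAs with the clearest contrast between them.

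**Figure D1:**
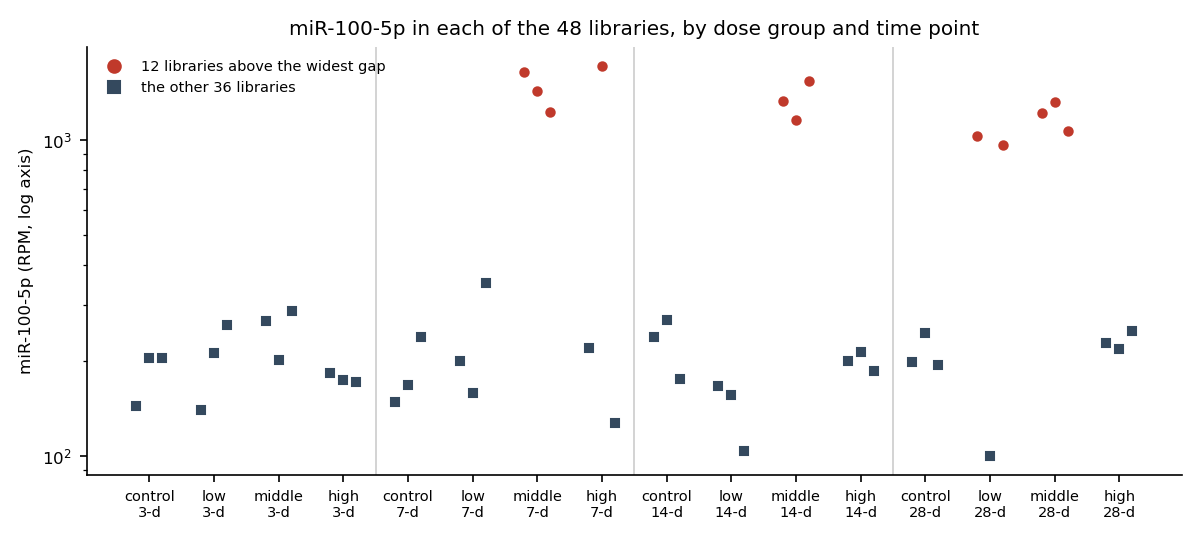
The level of miR-100-5p in RPM (log axis) in each of the 48 libraries, grouped by dose and duration. The 12 raised libraries sit at 960.3 to 1706 and include all 3 middle dose 28-d rats, 2 of 3 low dose 28-d rats and none of the high dose 28-d rats.

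A differentially expressed miRNA (DEM) was defined by a fold change above 1.5 and an unadjusted p under 0.05 in the quasi-likelihood test of edgeR, and differences are given as high minus middle dose on the log2 scale. By this rule 72 of the 301 tested miRNAs (23.9%) were DEMs. Of these, 35 were higher (11.6% of the tested) and 37 lower (12.3%) at the high dose, and all 72 also had an adjusted p under 0.05. Without the fold limit, 116 miRNAs (38.5%) had an adjusted p under 0.05, 66 higher and 50 lower. That count was 67 without middle dose rat 39 and 72 without high dose rat 20, while the count of DEMs stayed between 62 and 82 when any rat was left out. The 3 values of the doses did not overlap for 160 of all tested miRNAs (53.2%) and for 71 of the 72 DEMs, the exception being miR-21-3p. For 1 miRNA tested on its own, an exact two-sided permutation test of 3 rats against 3 cannot give a p below 0.1.

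The split of the calls by direction depended on the scaling. With library size alone in place of the upper quartile, 21 DEMs were higher and 56 lower, and the median difference over all tested miRNAs moved from 0.03 to -0.18. The 37 lower DEMs reached larger folds, with 14 above 2-fold against 5 of the higher ones. Their median level was 38.3 RPM, against 121 RPM for the higher DEMs and 64.8 RPM for all tested miRNAs. None of the 72 changed sign in any of the 18 other settings of the processing in which it was tested. In all 18 settings 24 of them, 16 lower and 8 higher, remained DEMs. Another 12 were DEMs in the 17 settings that tested them, and were removed by the filter of 5 RPM in each of the 6 libraries. The 18 settings do not include the fit with the library split as a term, which is described below. There 12 of the 37 lower and 6 of the 35 higher DEMs changed sign. Of the 24 that were DEMs in all 18 settings, 8 were DEMs in that fit too.

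**Figure D2:**
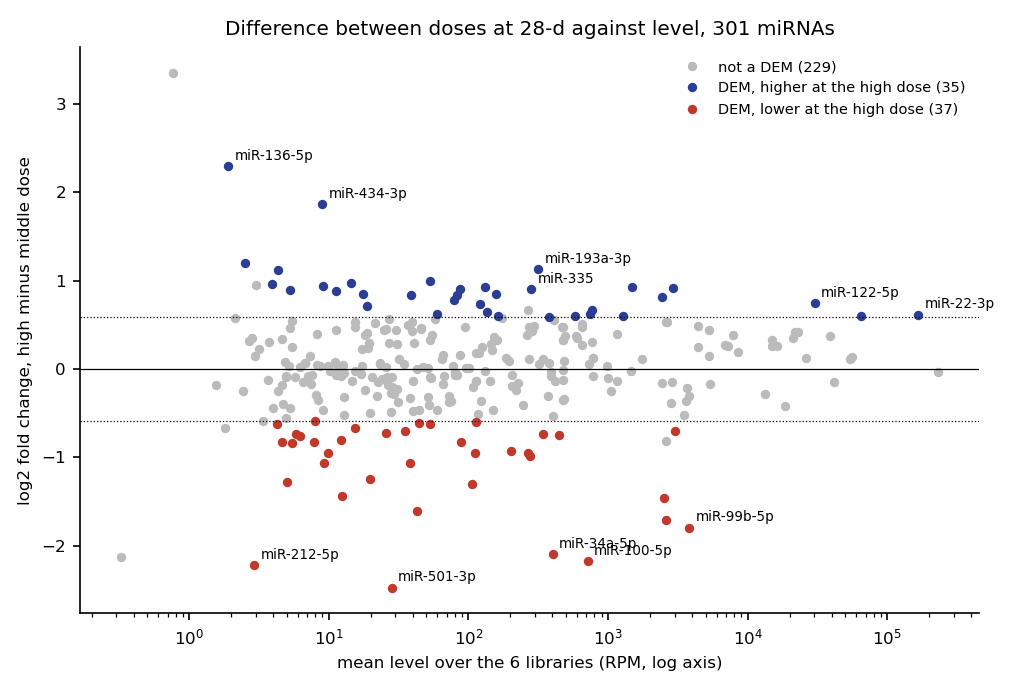
The log2 difference (high minus middle dose, 28-d) of each of the 301 tested miRNAs against its mean level in RPM (log axis), with DEMs coloured by direction. Lower DEMs reach further from 0 than higher ones, down to -2.47 for miR-501-3p, and the abundant miR-22-3p lies at 0.62.

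miR-99b-5p and miR-100-5p carried the smallest p-values of the contrast, and others of the miR-99/miR-100 and miR-125 families were lower with them. These miRNAs are co-transcribed with let-7 miRNAs from 3 homologous clusters and restrain growth signalling in several tissues. miR-100-5p was at 1147, 1222 and 904 normalised RPM in the middle dose rats and at 227, 234 and 267 in the high dose rats (normalised RPM are scaled over the 12 libraries of 28-d). Control rats were at 228, 253 and 216, so it was the middle dose that stood apart. The difference was -2.17 ± 0.14 (SE, edgeR adjusted p = 4.2e-05). Among the low dose rats, however, rats 28 and 30 had 906 and 860.0 and rat 29 had 112, and at 7-d high dose rat 26 had 1610 where rats 25 and 27 had 208 and 131 (scaled over the 24 middle and high dose libraries). The level of miR-100-5p thus varied as much between rats of the same dose as between the doses compared here.

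The related miR-99b-5p and miR-99a-5p had the same arrangement. miR-99b-5p measured 6130, 5380 and 5073 normalised RPM at the middle and 1414, 1652 and 1712 at the high dose (-1.80 ± 0.12). In the low dose rats it measured 3747 and 3474 in rats 28 and 30 and 976 in rat 29. The miR-99a-5p difference was -1.70 ± 0.14, miR-125b-5p fell by 1.46 ± 0.15 and miR-125a-5p by 0.70 ± 0.14, the last being no DEM without middle dose rat 38 (-0.57). In all, 5 of the 12 tested members of the miR-99/miR-100, miR-125 and miR-10 list were lower DEMs and none was higher. Of all tested miRNAs 12.3% were lower DEMs. These sequences differ from each other at few bases, and how reads matching several of them were shared out is not given in the sources used here.

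No let-7 guide strand, from these clusters or others, was a lower DEM. All 9 had positive differences with a median of 0.48 (0.26 with library size alone). In the fit with the split as a term that is described below, this median was -0.26 and none of the 9 was a DEM. From loci outside these clusters let-7d-5p and miR-98-5p were higher DEMs, and both calls were lost with library size alone (0.45 and 0.39) and that of miR-98-5p also with the TMM scaling (0.54) and in DESeq2 (0.57). miR-99b, let-7e and miR-125a lie within chr1:67350064-67350759 (GRCr8, plus strand), where miR-99b is inside the gene Spaca6. The ratio of miR-99b-5p to let-7e-5p was 21 to 28.5 in the middle dose rats and 4.76 to 5.18 in the high dose rats. In low dose rats 28 and 30 it was 14.0 and 12.4, and in rat 29 it was 2.90.

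miR-501-3p had the most negative difference of all tested miRNAs. It comes from a hairpin at chrX:17927189-17927272 (GRCr8, plus strand) within the gene Clcn5, which encodes a chloride transporter. It was at 44, 45.7 and 42.4 normalised RPM at the middle dose and 6.32, 8.16 and 9.35 at the high dose (665, 625 and 655 reads against 85, 88 and 109), a difference of -2.47 ± 0.17 (edgeR adjusted p = 4.2e-05). The doses were far apart and each was tight, yet low dose rats 28 and 30 had 33.8 and 26.1 and rat 29 had 7.20. Its seed partner miR-500-3p, printed above, was at 7.62 to 9.13 at the middle and 7.29 to 10.8 at the high dose (0.03 ± 0.19). miR-362-5p, a neighbour of miR-501 in Clcn5, fell by 1.44 ± 0.22, with 17.8 and 13.1 in low dose rats 28 and 30 against 2.23 in rat 29.

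Some strands moved without their partner from the same hairpin. miR-199a-5p, from a miRNA of stellate cells and fibroblasts, was at 314, 363 and 327 normalised RPM at the middle dose and 150.3, 212 and 159.5 at the high dose (-0.94 ± 0.15), while miR-199a-3p was at 586 to 828 and 665 to 835 (0.06 ± 0.16). The 5p to 3p ratio was 0.438 to 0.537 at the middle and 0.226 to 0.254 at the high dose, and among low dose rats 0.413 and 0.375 in rats 28 and 30 against 0.153 in rat 29. For miR-221 the 5p strand fell by 1.25 ± 0.32 and its ratio to the 3p strand was 0.288 to 0.407 against 0.101 to 0.183. For miR-21, a miRNA of injured and proliferating tissue, the abundant 5p strand differed by -0.14 ± 0.16. Its 3p strand fell by 0.74 ± 0.22 with overlapping values (302 to 461 against 180.5 to 303), and was no DEM without high dose rat 19 (-0.56). These ratios were chosen after their values were seen and carry no test. Over the 81 precursors with both strands tested, 31 had a DEM, and in 8 of these both strands were DEMs, always in the same direction. In 24 of the 81 the strands had differences of opposite sign. Of all single miRNAs tested 23.9% were DEMs, and whether strands of a precursor depart from that share was not tested.

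In the miR-183/miR-96/miR-182 cluster, known from sensory cells, and in the miR-132/miR-212 cluster, induced through CREB, 2 of 3 tested members each were lower DEMs (12.3% over all tested miRNAs). miR-96-5p was at 51.7, 42.1 and 83.7 normalised RPM at the middle dose and 26.1, 21.1 and 11.2 at the high dose (-1.60 ± 0.35, edgeR adjusted p = 0.012). miR-183-5p fell by 0.93 ± 0.29, while miR-182 spread from 787 to 2457 within the high dose and did not pass (-0.81 ± 0.43). miR-212-5p was a weak signal in counts, with 51, 67 and 79 reads against 9, 5 and 20 (-2.22 ± 0.43), and miR-132-3p fell by 0.83 ± 0.16. miR-212-3p did not pass (-0.67 ± 0.32, edgeR adjusted p = 0.13). All 4 calls were lost in the fit with the split as a term that is described below, where miR-96-5p was at 0.00 ± 0.54, miR-183-5p at -0.39, miR-212-5p at -0.28 and miR-132-3p at -0.62.

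**Figure D3:**
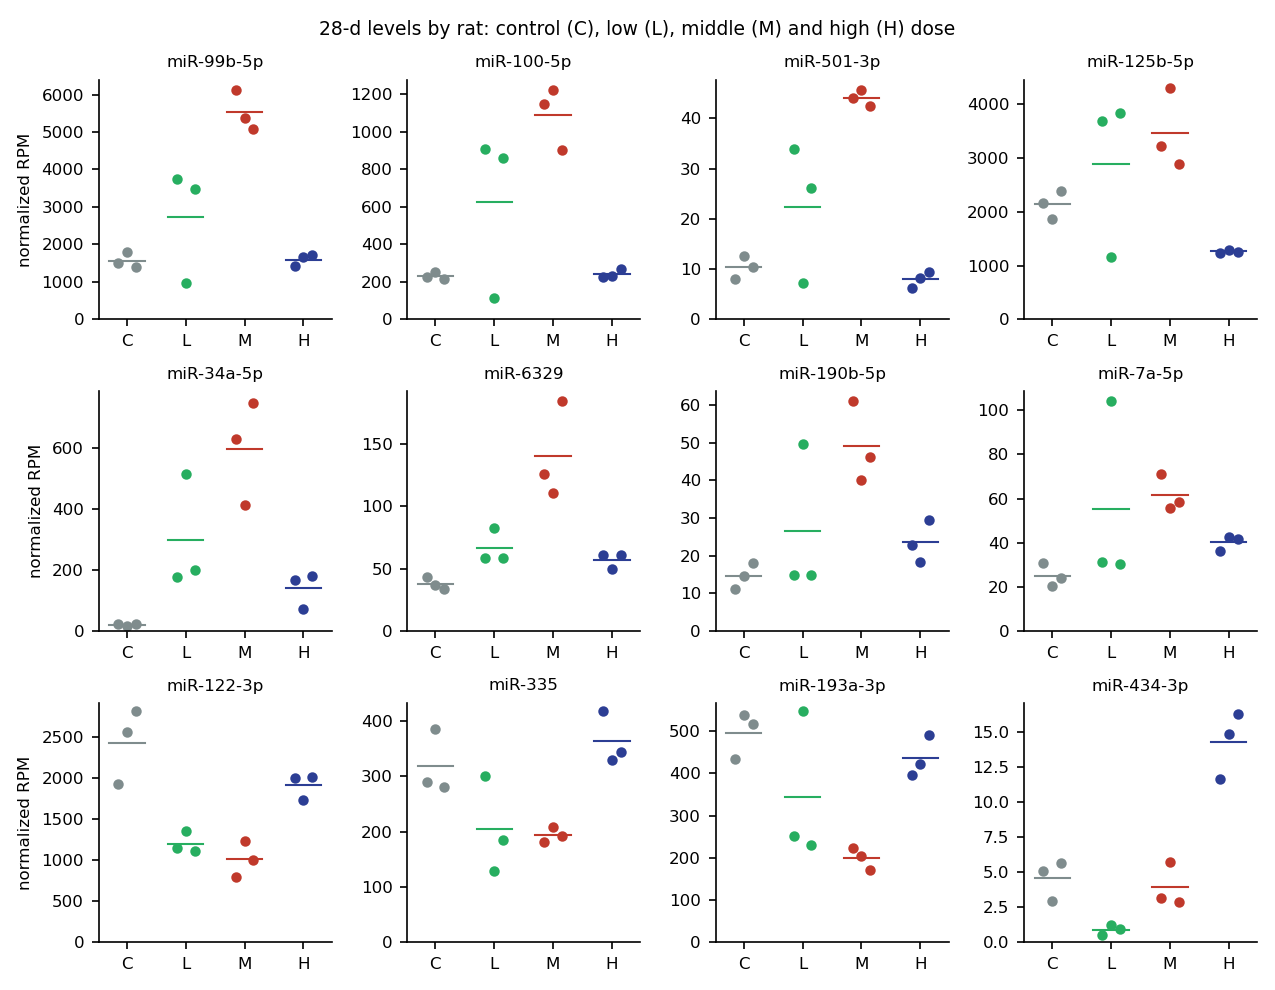
Normalised RPM (linear axes from 0) of 12 miRNAs in each 28-d rat, in the order of rat numbers within a dose, with a line at the mean of the 3 rats. For miR-100-5p and miR-501-3p low dose rats 28 and 30 lie well above rat 29, whereas for miR-34a-5p they lie below it.

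The second kind of lower DEM was led by miR-34a-5p. Its hairpin lies at chr5:165815952-165816053 (GRCr8, plus strand) within an uncharacterised long noncoding RNA. It was at 631, 413 and 750.1 normalised RPM at the middle dose and at 166, 73.1 and 181 at the high dose, where controls had 24.3, 14.6 and 22.1. Both doses were above the controls and the middle dose was the higher, with a difference of -2.09 ± 0.35 (edgeR adjusted p = 0.0046). At the low dose the order of the rats was the reverse of that for miR-100-5p, with 515 in rat 29 and 178 and 200.1 in rats 28 and 30. Among high dose rats of 7-d, the raised rat 26 (490.1) lay below rats 25 and 27 (538 and 838). The passenger strand miR-34a-3p was too rare to be tested, with 34, 18 and 37 reads at the middle and 14, 1 and 10 at the high dose.

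Members of the same seed as miR-34a-5p did not move as one. miR-34c-5p was at 34.2 to 44.7 normalised RPM at the middle and 41.8 to 65.8 at the high dose (0.45 ± 0.19, edgeR adjusted p = 0.11). miR-449a-5p, named after its values were seen, was at 4.53 to 5.30 against 2.68 to 3.80 (-0.62 ± 0.21) and was a DEM in 12 of the 17 settings that tested it. The ratio of miR-34a-5p to miR-34c-5p was 11.8 to 22 at the middle dose, 1.75 to 3.47 at the high dose and 0.602 to 1.39 in controls.

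Several less studied miRNAs followed the order of miR-34a-5p. miR-6329, from a hairpin within the gene Rdx at chr8:61334239-61334329 (GRCr8, minus strand), was at 126, 111 and 185 normalised RPM at the middle and 61.0, 49.5 and 60.9 at the high dose (-1.30 ± 0.20). miR-190b-5p was at 61.1, 40 and 46.3 against 22.7, 18.3 and 29.5 (-1.06 ± 0.22), while its seed partner miR-190a-5p overlapped (66.7 to 96.8 against 72.4 to 82.4). Low dose rat 29 was above rats 28 and 30 for both, with 82.8 against 58.7 and 58.6 for miR-6329 and 49.7 against 14.9 and 14.8 for miR-190b-5p. miR-7a-5p, a miRNA known from endocrine and nerve cells, had the same order (104 against 31.4 and 30.5). Its own difference was smaller (-0.62 ± 0.14) and it was no DEM without high dose rat 19 (-0.56) or middle dose rat 37 (-0.51).

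miR-146b-5p, of a family induced by inflammatory signalling, was at 531, 444 and 609 normalised RPM at the middle dose and 267, 275 and 400.2 at the high dose (-0.75 ± 0.19, edgeR adjusted p = 0.020). Its partner miR-146a-5p differed by -0.24 ± 0.14. miR-3559-5p was at 319 to 399.6 against 161 to 194 (-0.99 ± 0.13), miR-9a-5p fell by 0.84 ± 0.24 and miR-466b-5p by 0.67 ± 0.15. miR-185-5p, named after its values were seen and placed at chr11:96169028-96169107 (GRCr8, plus strand) within Tango2, was at 13 to 16 against 7.73 to 9.18 (-0.80 ± 0.15).

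The largest positive difference was that of miR-6321 (3.35), which was no DEM. Among the higher DEMs, miR-136-5p and miR-434-3p of the imprinted Dlk1-Dio3 region had the largest folds, at low counts. This region holds a large array of miRNAs that are active in the fetus and little expressed in adult liver. miR-136-5p was at 14, 7 and 8 reads at the middle and 36, 30 and 50 at the high dose (2.29 ± 0.37, edgeR adjusted p = 0.0039). miR-434-3p was at 3.18, 5.77 and 2.85 normalised RPM against 11.7, 14.8 and 16.3 (1.86 ± 0.28) and miR-136-3p was 1.12 ± 0.29 higher. Their hairpins lie within the gene Rtl1 (miR-434 at chr6:134330402-134330482, GRCr8, plus strand). miR-127-3p from the same locus did not follow, with 29.2 to 64.1 against 19.7 to 40 (-0.47 ± 0.34). Of 91 listed miRNAs of the region 6 were tested, of which 3 were higher DEMs and none lower (11.6% and 12.3% over all tested miRNAs).

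miR-335, whose host gene is the imprinted Mest, was at 182, 208 and 192 normalised RPM at the middle dose and 418, 329 and 345 at the high dose (0.91 ± 0.12, edgeR adjusted p = 0.0023). Controls had 281 to 385, so the middle dose lay below both. Low dose rat 29 (128) was below rats 28 and 30 (300.0 and 186).

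The hepatocyte list held 11 tested members, of which 3 were higher DEMs and none lower. Over all tested miRNAs the shares were 11.6% and 12.3%. Of the 11 differences 8 were positive and 3 negative, and miR-192-5p, the most abundant member, barely differed (-0.03, edgeR adjusted p = 0.81). miR-122-5p was at 23029, 25133 and 18887 normalised RPM at the middle and 37421, 36487 and 38531 at the high dose (0.75 ± 0.11, edgeR adjusted p = 0.0035), and controls spread from 28346 to 39796. Low dose rat 29 had 69313 where rats 28 and 30 had 27562 and 27351. The passenger miR-122-3p was at 798, 1230 and 1001 against 2001, 1730 and 2018 (0.92 ± 0.16), but in the low dose it was alike in rats 28, 29 and 30 (1153, 1350 and 1108). In pieces of whole liver, fewer cells of a type and less RNA per cell cannot be told apart.

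Some other abundant liver miRNAs were higher at the high dose, as miR-122-5p was. miR-22-3p took 13.5% to 14.9% of reads at the middle and 18.8% to 19.4% at the high dose (0.62 ± 0.07). As a DEM it depended on the scaling, since it fell under 1.5-fold with TMM (0.55), DESeq2 (0.58) and library size alone (0.40). miR-26a-5p, which restrains cell cycle genes, was 0.60 ± 0.10 higher and under 1.5-fold with the same alternatives (0.54, 0.57 and 0.39), and miR-148a-5p was 0.82 ± 0.11 higher while its abundant partner miR-148a-3p differed by 0.13 ± 0.16. miR-193a-3p was at 224, 204 and 170.1 normalised RPM against 396, 422 and 491 (1.13 ± 0.14, edgeR adjusted p = 0.0018), and the 5p strand was 0.90 ± 0.26 higher. All 11 tested members of the miR-30 family had positive differences, with 1 DEM (miR-30d-3p, 0.84 ± 0.11) and 8 adjusted p under 0.05. Of all 301 tested miRNAs, 66 were higher with an adjusted p under 0.05. With the upper quartile scaling the median of all tested miRNAs was 0.03, and with library size alone the miR-30 median fell from 0.44 to 0.22. In the fit with the split as a term that is described below, miR-22-3p (0.43), miR-193a-3p (0.46) and miR-30d-3p (0.62) were no DEMs. miR-148a-5p (-0.22) and miR-193a-5p (-0.30) were no DEMs there either and changed sign, while miR-26a-5p remained a DEM.

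The miR-200 family, of epithelial and bile duct cells, held DEMs of both directions. miR-200c-3p (11 to 13.6 normalised RPM against 5.15 to 8.63, -0.95 ± 0.22) and miR-141-3p (123 to 143 against 77.8 to 92.1, -0.60 ± 0.12) share a transcript on chromosome 4 and were lower. miR-200a-3p, encoded on chromosome 5, was at 56.8 to 59.0 against 71.0 to 131 (0.78 ± 0.21) and miR-200a-5p was 1.20 ± 0.38 higher. The ratio of miR-200a-3p to miR-141-3p, which share a seed, was 0.413 to 0.462 at the middle and 0.794 to 1.68 at the high dose. Leaving out high dose rat 20 removed the call of miR-200a-3p (0.52), and leaving out that rat or middle dose rat 37 removed that of miR-141-3p (-0.53 and -0.54).

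Most miRNAs of the red blood cell list were higher too, where 11.6% of all tested miRNAs were higher DEMs. Of 4 tested members 3 were higher DEMs and none lower: miR-486 at 2769, 2040 and 1229 normalised RPM against 3695, 3551 and 4189 (0.92 ± 0.26), and both strands of miR-144 (0.84 ± 0.22 and 0.84 ± 0.26). miR-451-5p overlapped, with 132 to 308 against 279 to 387 (0.67 ± 0.29, edgeR adjusted p = 0.11). All 3 calls were lost in the fit of the 24 middle and high dose libraries, at differences of 0.83 to 0.92, and in the fit with the split as a term, where miR-486 was at -0.66 ± 0.84. The summed level of the list was 1418 to 3194 at the middle dose, 4008 to 4741 at the high dose and 2887 to 5176 in controls. The part of blood left in the tissue in these values was not tested.

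For lists of other cell types the counts were small, beside 11.6% higher and 12.3% lower over all tested miRNAs. None of the 5 tested leukocyte miRNAs was a DEM, although all 5 differences were negative and 2 had an adjusted p under 0.05, with summed levels of 4530 to 5271 against 3475 to 4577. The stellate and smooth muscle list had 1 lower DEM of 7, the endothelial list none of 2, the pancreas list none of 1 and the brain list 2 lower of 5. Of 14 listed skeletal and heart muscle miRNAs 2 were tested, neither was a DEM and 9 stood at 0 reads in all 6 libraries. miR-455-3p, a miRNA that regulates cartilage and fibrosis genes, was at 45.2, 95.8 and 40.3 normalised RPM against 115, 100.5 and 124 (0.91 ± 0.31, edgeR adjusted p = 0.0496). It lost the call without high dose rat 21, middle dose rat 37 or middle dose rat 39 (0.84, 0.74 and 0.68).

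The low dose and 7-d groups with both kinds of library allowed a count of how DEMs varied within a dose. Of the 37 lower DEMs, low dose rats 28 and 30 were both above rat 29 for 23 and both below for 13, and high dose 7-d rat 26 was above both of its group for 20 and below both for 8. Both groups followed the direction of the split for 18 of the 37 and both opposed it for 5. Of the 35 higher DEMs, both groups followed it for 14 and both opposed it for 4, and of all 301 tested miRNAs the counts were 101 and 42. Thus the lower DEMs included miRNAs of either behaviour.

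When the split entered as a term in a fit of all 48 libraries, an alternative added after the data were seen, the contrast rested on those 6 rats for its separation of split and dose. It gave 42 DEMs (14.0%), 25 higher and 17 lower, of which 11 had an adjusted p under 0.05. In that fit 22 of the 72 DEMs remained in the same direction, and 49 of the 301 miRNAs (16.3%) had a split coefficient with an adjusted p under 0.05. miR-100-5p became a DEM in the other direction (0.95 ± 0.37, edgeR adjusted p = 0.16). The split was drawn from the level of miR-100-5p in these same libraries. Its value in this fit, and those of miRNAs that vary with it, are therefore no test of a difference between the doses. miR-501-3p went from -2.47 to 0.03 ± 0.48, miR-99b-5p to 0.14 ± 0.51, miR-125b-5p to 0.07 ± 0.40 and miR-122-5p to -0.06 ± 0.29.

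The values of other miRNAs grew or held. They rest on the same rats whose order within a dose is given above, so they are no separate support for that order. miR-34a-5p went to -3.06 ± 0.66 (edgeR adjusted p = 0.012), miR-190b-5p to -2.16 ± 0.56, miR-146b-5p to -1.64 ± 0.45, miR-6329 to -1.52 ± 0.41 and miR-335 to 1.60 ± 0.47. Those 5 all had an adjusted p under 0.05 in this fit, as did miR-7a-5p (-1.58 ± 0.39), miR-185-5p (-1.40 ± 0.34) and miR-23b-3p (0.92 ± 0.25). In every setting that tested them and in the fit with the split, 12 miRNAs remained DEMs, of which miR-9a-5p, miR-200c-3p, miR-136-5p and miR-434-3p were removed by the filter of 5 RPM in each library and so tested in 17 of the 18 settings. The lower ones were miR-34a-5p, miR-190b-5p, miR-6329, miR-146b-5p, miR-185-5p, miR-3559-5p, miR-9a-5p and miR-200c-3p, and the higher ones were miR-136-5p, miR-434-3p, miR-335 and miR-122-3p.

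**Figure D4:**
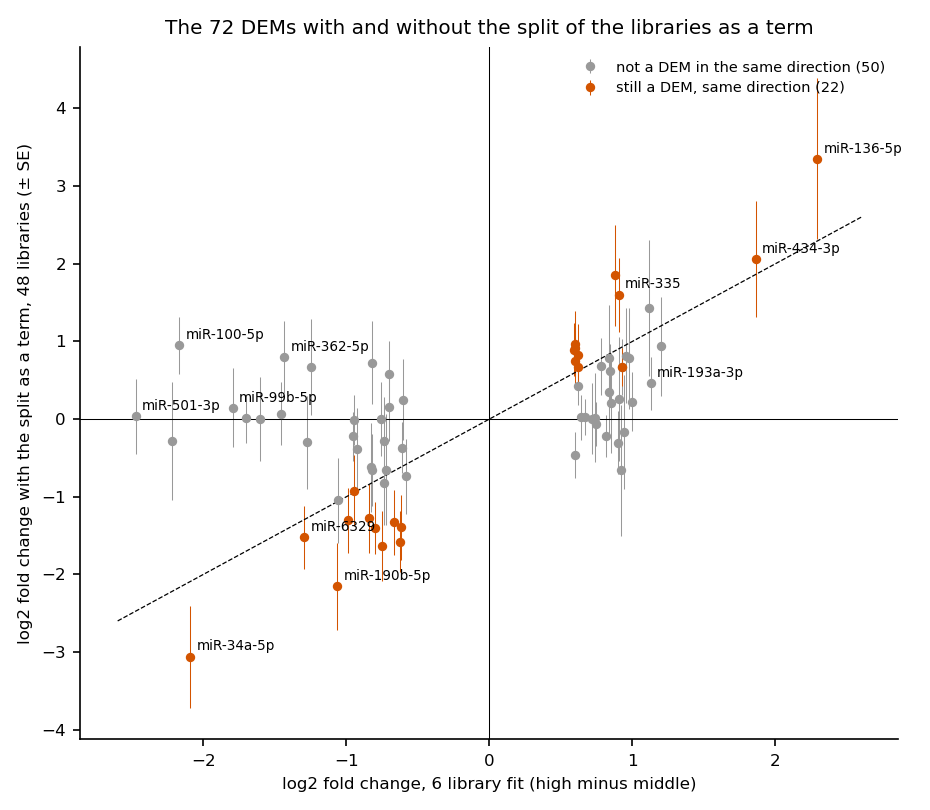
For each of the 72 DEMs, the log2 difference (high minus middle dose, 28-d) in the fit of the 6 libraries (horizontal) and in the fit of 48 libraries with the split as a term (vertical, bars of 1 SE), on linear axes with a dashed line of equal values. miR-34a-5p, miR-6329 and miR-190b-5p stay below 0, while miR-501-3p (-2.47 to 0.03) and miR-100-5p (-2.17 to 0.95) leave the diagonal.

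Relative to the 28-d controls, which both doses share, the middle dose had 99 DEMs (32.9%), 63 higher and 36 lower, and the high dose 46 (15.3%), 39 higher and 7 lower. Adjusted p-values under 0.05 numbered 107 and 10. All 3 middle dose libraries of 28-d are raised, and no control or high dose library of 28-d is. Dose and split therefore cannot be told apart between the middle dose and the controls, and the 2 comparisons are not alike in this. miR-34a-5p was 4.88 ± 0.30 higher than the controls at the middle and 2.79 ± 0.34 at the high dose. miR-99b-5p was 1.82 ± 0.17 higher at the middle dose and 0.02 ± 0.16 at the high dose, and miR-501-3p 2.08 ± 0.20 and -0.39 ± 0.24. miR-193a-3p was -1.31 ± 0.18 and -0.18 ± 0.16, and miR-122-3p -1.27 ± 0.21 and -0.34 ± 0.17. For these the high dose lay nearer to the controls, whereas miR-434-3p stood at -0.21 ± 0.34 at the middle and 1.65 ± 0.27 at the high dose.

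The same contrast at the other durations used other rats. In a fit of the 24 middle and high dose libraries, 28-d had 60 DEMs (19.9%), 14-d had 44 (14.6%), 7-d had 42 (14.0%) and 3-d had 20 (6.64%). At 3-d no adjusted p was under 0.05 in edgeR and 43 unadjusted ones were. At 14-d, where the middle dose libraries are again all raised and the high dose libraries are not, the differences of all 37 lower and of 32 of the 35 higher DEMs had the sign of 28-d, against 220 of all 301. At 7-d the counts were 15 and 22 (163 of all 301), and at 3-d, where no library is raised, 13 and 18 (152 of 301). miR-34a-5p was -0.49 for 3-d, 1.36 for 7-d, then -2.67 for 14-d and -2.09 for 28-d.

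The change of the difference between durations was tested in the same fit. Between 28-d and 14-d no miRNA (0.0%) had an adjusted p under 0.05 in edgeR, and 13 had an unadjusted one. Between 28-d and 7-d 21 (6.98%) did, 13 with a lower and 8 with a higher difference at 28-d. miR-335 (2.12), miR-6329 (-2.50) and miR-34a-5p (-3.45) were among them. Without 1 rat of 28-d this count was 7 (high dose rat 20 left out), 8 (middle dose rat 37), 10 (middle dose rat 39) or 13 (high dose rat 19). Between 28-d and 3-d 13 (4.32%) did, miR-212-5p (-4.06) and miR-434-3p (2.88) among them, and this count was 5 without high dose rat 20 or middle dose rat 39, 7 without high dose rat 19 or middle dose rat 37, and 8 without middle dose rat 38.

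**Figure D5:**
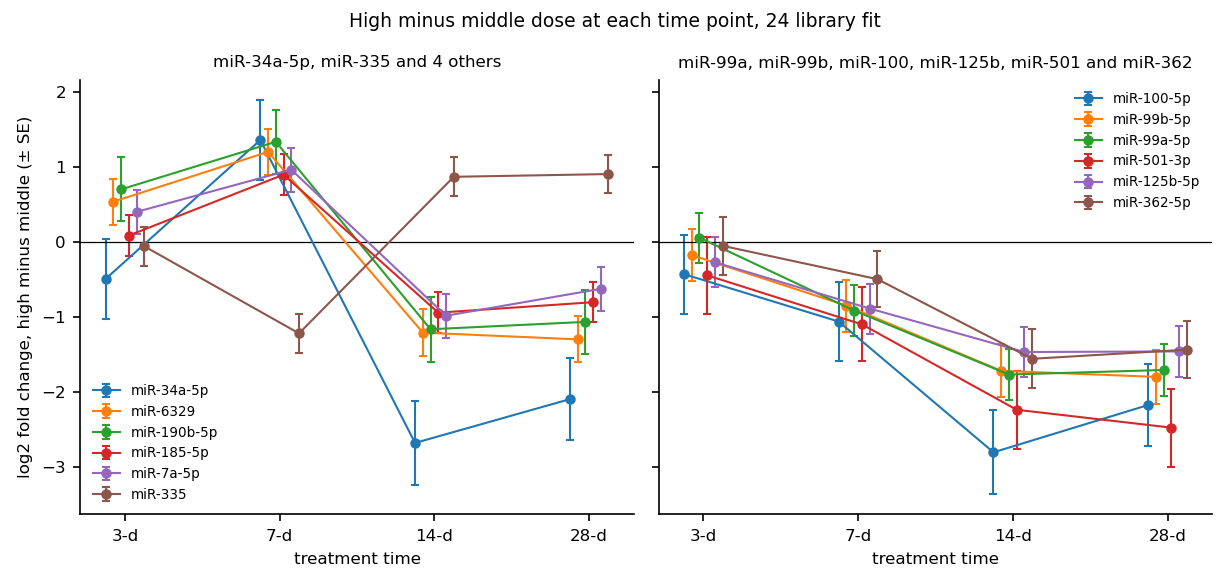
The log2 difference (high minus middle dose) of selected miRNAs at 3, 7, 14 and 28 days with bars of 1 SE, from a fit of 24 libraries with 3 rats per dose and duration. miR-34a-5p is at 1.36 at 7-d and -2.09 at 28-d.

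Some other DEMs close to the 1.5-fold limit lost the call when 1 rat was left out. Those that were higher were miR-26a-5p and miR-23b-3p, each without high dose rat 21 (0.54 and 0.51) or middle dose rat 39 (0.56 and 0.52), with miR-26a-5p also without middle dose rat 37 (0.56). miR-98-5p lost it without high dose rat 21 (0.57) or middle dose rat 39 (0.54), miR-144-5p without middle dose rat 39 (0.58), and both strands of miR-322 without high dose rat 19, middle dose rat 37 or middle dose rat 39 (0.52 to 0.57). The calls of miR-23b-3p and miR-322-5p were also lost with TMM, DESeq2 and library size alone (0.38 to 0.56), and those of miR-122-5p and miR-200a-3p with library size alone (0.54 and 0.56). In the fit of 24 libraries miR-136-3p, miR-21-3p, miR-466b-5p, miR-141-3p and both strands of miR-19a were no DEMs, at 1.11, -0.74, -0.67, -0.60, -0.82 (miR-19a-3p) and -0.74 (miR-19a-5p). Of the lower ones, miR-466b-5p lost it without high dose rat 20 (-0.58) and miR-19a-3p without middle dose rat 37 (-0.60, edgeR adjusted p = 0.11).

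Among the 270 tested miRNAs with a sequence at hand, 31 seeds were shared by 2 or more (87 miRNAs in all). In 5 of them at least 2 members were DEMs (the miR-99/miR-100, miR-125, miR-34, let-7 and miR-15/miR-16 seeds), and none of these 31 had DEMs in both directions. miR-200a-3p has no sequence here and was not counted, and it and miR-141-3p, named above as sharing a seed, were DEMs in opposite directions. By position, 28 loci on GRCr8 held 2 or more precursors within 10000 bases, 18 held a DEM and 8 held at least 2. Mature strands without a placed entry here were not counted, among them the lower DEMs miR-362-5p and miR-99a-5p, so these counts are too low. Among the strands counted, no locus held DEMs in both directions. In the miR-322/miR-503/miR-450/miR-542 cluster on chromosome X, whose lead members slow the cell cycle, both strands of miR-322 were higher DEMs (0.59 ± 0.11 for the 5p strand). In the miR-17 to miR-92a cluster, a promoter of proliferation, 2 of 9 tested members (both strands of miR-19a) were lower DEMs, beside 12.3% of all tested miRNAs.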

How the data were processed

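Total RNA from liver was prepared by the authors with the TruSeq small RNA kit, and 48 barcoded libraries were pooled and sequenced on a HiSeq2000. Reads of 18 to 25 bases were mapped by the authors to rat (rn5) and counted with miRDeep2 against miRBase release 21, and the deposited values are raw counts per mature miRNA and precursor. For each of the 71 mature miRNAs listed under several precursors, the row with most reads was used. The filter kept miRNAs at 5 RPM or more in 3 or more of the 48 libraries. Depth was 11569043 to 14207698 counts per library of the contrast, and a count of 3, the limit that a count of 0 allows, is 0.211 to 0.259 RPM. Intervals of this kind cover counting error only.

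The 6 libraries were fitted with the quasi-likelihood F-test of edgeR 4.0.16 in R 4.3.3 after upper quartile scaling, with Benjamini-Hochberg adjustment over 301 miRNAs. The scripts were tested on simulated data. Durations were compared in a fit of 24 libraries. SE is that of the fitted log2 difference. Alternatives were other scalings, filters, precursor choices, the exact test, DESeq2 1.42.0, larger fits and leaving out each rat. A fit with the miR-100-5p split as a term was chosen after seeing the data. Named miRNAs are those the study names, the 10 higher and 10 lower non-overlapping DEMs of smallest p, DEMs in the lists, the 3 most abundant members of each list, the 5 most abundant miRNAs, and strand, seed and locus partners. The members and lists were chosen with earlier results of these data known. By the study's methods the 3 libraries of a condition come from separate rats.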

Additional observations from a re-analysis of the deposited data

Results flagged for a closer look

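The high minus middle dose difference was compared between durations in the edgeR fit of 24 libraries, and the miRNAs named by rule whose difference at 28-d departed from that at 7-d or 3-d with an adjusted p under 0.05 follow. Values are the 28-d difference minus the earlier one on the log2 scale. All 3 middle dose libraries of 7-d and 28-d were among the 12 with raised miR-100-5p, 1 high dose library of 7-d was too, and no library of 3-d was. Over all tested miRNAs such changes numbered 21 between 28-d and 7-d and 13 between 28-d and 3-d, and 22 and 16 in the fit of 48 libraries with the split as a term.

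Against 7-d, edgeR gave a lower difference at 28-d for miR-34a-5p -3.45 (adjusted p = 0.0107), miR-3559-5p -1.62 (adjusted p = 0.0416), miR-6329 -2.50 (adjusted p = 0.00158), miR-200c-3p -1.66 (adjusted p = 0.00789), miR-9a-5p -2.02 (adjusted p = 0.00789), miR-146b-5p -1.75 (adjusted p = 0.018), miR-132-3p -1.83 (adjusted p = 0.0416), miR-190b-5p -2.40 (adjusted p = 0.0205), miR-7a-5p -1.59 (adjusted p = 0.0245) and miR-466b-5p -1.97 (adjusted p = 0.018). A higher difference at 28-d than at 7-d was found in edgeR for miR-22-3p 0.60 (adjusted p = 0.0462), miR-30d-3p 1.03 (adjusted p = 0.0276), miR-335 2.12 (adjusted p = 0.00158), miR-122-3p 1.01 (adjusted p = 0.018), miR-26a-5p 0.95 (adjusted p = 0.0245), miR-200b-3p 1.64 (adjusted p = 0.0439) and miR-429 1.12 (adjusted p = 0.0317).

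Against 3-d, edgeR gave a lower difference at 28-d for miR-99a-5p -1.76 (adjusted p = 0.0418), miR-6329 -1.83 (adjusted p = 0.0184), miR-199a-5p -1.32 (adjusted p = 0.013), miR-9a-5p -1.56 (adjusted p = 0.0418), miR-21-3p -2.48 (adjusted p = 0.021), miR-19a-5p -2.09 (adjusted p = 0.0465), miR-146b-5p -1.95 (adjusted p = 0.013), miR-132-3p -1.91 (adjusted p = 0.0465) and miR-212-5p -4.06 (adjusted p = 0.013). A higher difference at 28-d than at 3-d was found in edgeR for miR-434-3p 2.88 (adjusted p = 0.021), miR-378a-3p 0.90 (adjusted p = 0.013) and miR-200b-3p 1.71 (adjusted p = 0.0465). The miRNAs miR-6329, miR-9a-5p, miR-146b-5p, miR-132-3p and miR-200b-3p appear against both durations.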

How the results depend on the processing

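No paired analysis was possible because each rat has a number of its own in the labels and no number is shared between the groups. No DEM changed sign in the other settings, that one with the split aside. With library size alone 21 DEMs were higher and 56 lower, with no filter 61 were lower, and with at least 5 RPM in each of the 6 libraries 15 were higher. The fold limit of 2 gave 19 DEMs. Adjusted p-values under 0.05 numbered 40 with all 12 libraries of 28-d in the fit, 36 with 24 and 32 with 48. When any rat was left out, DEMs numbered 62 to 82 and adjusted p-values under 0.05 67 to 104, and the changes from 7-d numbered 7 to 16 and from 3-d 5 to 12. The changes from 3-d were 25 with no filter and 22 with 48 libraries. The cause of these shifts was not tested, beyond the fewer samples or miRNAs that some alternatives hold.

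With the split as a term there were 42 DEMs, 17 lower, and 11 adjusted p-values under 0.05. In that fit the sign turned for 114 of the 301 tested miRNAs, among them 12 of the 37 lower and 6 of the 35 higher DEMs. The named miRNAs with a turned sign included miR-122-5p (-0.063), miR-148a-5p (-0.22), miR-99b-5p (0.14), miR-100-5p (0.95), miR-501-3p (0.034), miR-99a-5p (0.010), miR-125b-5p (0.071), miR-362-5p (0.79), miR-374-3p (0.59), miR-141-3p (0.25), miR-486 (-0.66), miR-98-5p (-0.46), miR-19a-3p (0.73), miR-221-5p (0.67), miR-125a-5p (0.15), miR-190a-3p (0.0051), miR-193a-5p (-0.30), miR-466c-5p (-0.76) and miR-362-3p (0.89). This contrast rests on 6 rats of other groups and on a split drawn from miR-100-5p, and 3 rats per group limit every test. The 14-d comparison shares the split, so it does not separate dose from split.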
